A study of Mus musculus with 7 samples.

Results

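The cell surface receptors for activins, bone morphogenetic proteins (BMPs) and TGF-β were compared in the prefrontal cortex (PFC) of female mice. They comprise 10 of the 21885 protein-coding genes in a table of 55416 genes. Acvr2a, Acvr2b, Bmpr2 and Tgfbr2 encode type II receptors, and Acvr1, Acvr1b, Acvr1c, Bmpr1a, Bmpr1b and Tgfbr1 encode type I receptors. The group was chosen by its family because Acvr2b had been found to be high in the Alt libraries, so the values of Acvr2b are given as a description without a test. The question was whether the other 9 receptors showed the same difference.

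C57BL/6 wild-type mice received a recombinant adeno-associated virus (AAV) in the PFC, in which the human synapsin promoter, active mainly in neurons, drove expression together with an EGFP reporter. Ctr mice (3 libraries) received the empty virus, Ref mice (2 libraries) a virus with the human long noncoding RNA PAXIP1-AS1 carrying the reference C allele, and Alt mice (2 libraries) the same RNA carrying the alternative G allele. All groups therefore carried the vector and the reporter, and neither the age of the mice nor the day of tissue collection was given for these libraries. No label states that the libraries came from separate mice, so p-values measure only the spread between these libraries, which may be technical.

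A ligand of this family binds a type II receptor, a constitutively active kinase, which then phosphorylates a type I receptor in the same complex. Acvr1b, Acvr1c and Tgfbr1 pass the signal to SMAD2 and SMAD3, whereas Bmpr1a, Bmpr1b and Acvr1 pass it to SMAD1, SMAD5 and SMAD9, and both branches use SMAD4 to act on target genes in the nucleus. In the forebrain, activin is known for its induction by neuronal activity and its effects on synapses and dendritic spines, and BMP and TGF-β signals act on neurons, glia and vessels.

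Total counts per library lay between 16655697 and 20750857, with both Alt libraries (16655697 and 18673575) below the other 5. The Alt libraries also stood apart from each other, the chi-square of their counts per degree of freedom being 58.0, against 18.6 to 25.0 within Ctr and Ref, and what changed when Alt replicate 1 was left out is given beside the receptor results and the pathway calls. Leaving out an Alt or a Ref library leaves a single library in that group. The spread in such a fit comes only from the other groups, so a call kept or lost there carries no spread of that group. Markers of neurons and of cortical layers were all detected in every library, with summed levels of 4904 to 5924 and of 388 to 563.8 CPM, a count scaled to a common library size, while striatal markers summed to 42.2 to 79.1 CPM and choroid plexus markers to at most 6.11 CPM. CPM values here are scaled by edgeR's TMM factors. In bulk tissue, fewer cells of a type and less RNA per cell cannot be told apart. Of 17254 genes with enough counts for testing, edgeR's quasi-likelihood test called 0 at an adjusted p of 0.05 between Alt and Ctr, 3414 at an unadjusted p of 0.05, and DESeq2 called 1097 at an adjusted p of 0.05. Between Ref and Ctr the corresponding counts were 0, 541 and 6. A gene is therefore described as higher or lower at the unadjusted threshold, to be read against the share of all genes that met it in the same comparison.

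Receptor levels in control tissue were compared in FPKM, which divides counts by gene length. All 10 receptors were detected in all 7 libraries, and they spanned a wide range. Acvr1b, a type I receptor for activins, had the highest mean FPKM in Ctr at 28.3 ± 3.60 FPKM (SD, n = 3). It was followed by Bmpr2, the type II receptor for BMPs, at 26.5 ± 3.74 FPKM, and the ranges of this pair overlapped. Bmpr1a, a type I receptor for BMPs, had 16.8 ± 2.03 FPKM, Acvr2a, a type II receptor for activins, had 13.2 ± 2.28 FPKM, and Tgfbr1, the type I receptor for TGF-β, had 11.4 ± 2.07 FPKM. Neighbours among these 3 overlapped in range. Bmpr1b had 7.34 ± 1.12 FPKM and Acvr1, which binds BMPs and activins, had 6.79 ± 0.125 FPKM, again with overlapping ranges. The 3 lowest were separated from one another: Acvr1c, a type I receptor for activin B and Nodal, at 5.62 ± 1.07 FPKM, Tgfbr2, the type II receptor for TGF-β, at 3.91 ± 0.141 FPKM, and Acvr2b, which binds activins, myostatin and related ligands, at 0.749 ± 0.246 FPKM. Acvr2b stood at the 23.5th percentile of all tested genes in mean Ctr level, whereas the other 9 receptors stood between the 54.6th and the 91.8th percentile. It was the lowest of the 10 in each of the 3 groups.

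Acvr2b (ENSMUSG00000061393.15, which the deposited table places on the forward strand of chromosome 9 from 119231184 to 119264061) had 49, 45 and 84 counts in the Ctr libraries, 108 and 79 in Ref and 175 and 121 in Alt. In CPM these were 2.43, 2.22 and 3.90 in Ctr, 5.22 and 4.09 in Ref, and 11.4 and 6.75 in Alt. The 3 groups did not overlap in these values, and the Ref libraries lay between the other groups. With so few counts, the 95% Poisson intervals of neighbouring libraries did overlap. They were 3.11 to 4.83 CPM in Ctr replicate 3 and 3.23 to 5.09 CPM in Ref replicate 2. In Ref replicate 1 and Alt replicate 2 they were 4.29 to 6.31 CPM and 5.60 to 8.06 CPM. Alt was 3.17-fold above Ctr (log2FC 1.66, SE 0.38), Ref was 1.63-fold above Ctr (log2FC 0.71, SE 0.38), and Alt was 1.94-fold above Ref (log2FC 0.96, SE 0.42). Without Alt replicate 1, which had the highest value, the log2FC between Alt and Ctr was 1.24 (SE 0.44) and that between Alt and Ref was 0.55. These values chose the gene and are not tested here.

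**Figure D1:**
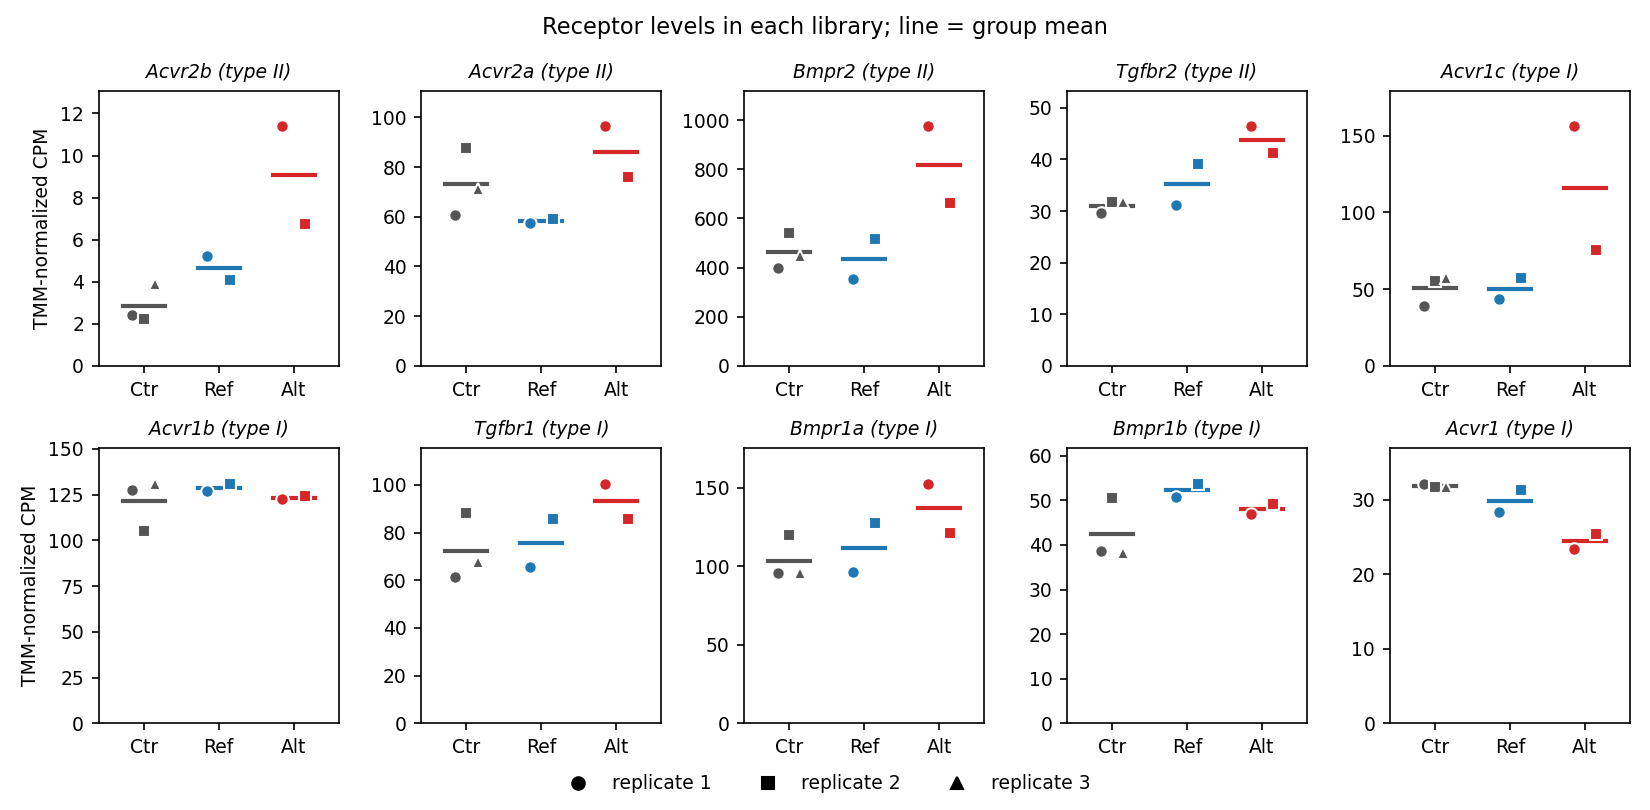
TMM-normalized CPM (linear vertical axes starting at 0, one scale per gene) of the 10 receptors in each of the 7 libraries, with the group mean as a line and the replicate number as the symbol. Acvr2b went from 2.22 to 3.90 CPM in Ctr to 6.75 and 11.4 CPM in Alt, Acvr1c, Bmpr2 and Tgfbr2 also had both Alt libraries above all others, and Acvr1 had both Alt libraries below all others.

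Among the other 9 receptors, 4 were higher in Alt than in Ctr at an unadjusted p of 0.05 and 0 were lower. These were the type II receptors Bmpr2 and Tgfbr2 and the type I receptors Acvr1c and Bmpr1a. Of all genes tested, 9.45% were higher and 10.3% were lower at this threshold, against 44.4% higher among the 9. The log2FC was positive for 8 of the 9, with a median of 0.36 against -0.03 over all genes. By edgeR none of the 9 passed an adjusted p of 0.05, and the smallest adjusted p of any gene was 0.12. By DESeq2, which called 1097 genes in all, Acvr1c and Bmpr2 passed it. Both Alt libraries lay above all 5 others for 3 of the 9 (Acvr1c, Bmpr2 and Tgfbr2), or 33.3%, against 11.6% of all genes. For 1 of the 9 (Acvr1), or 11.1%, both lay below all 5 others, against 13.1% of all genes. When each library's dependence on gene length was removed, 2 of the 9 were higher in Alt than in Ctr at an unadjusted p of 0.05. The share of all genes higher was then 7.3%.

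Acvr1c showed the largest difference among the 9. It had 39.3, 55.4 and 57.2 CPM in Ctr, 43.3 and 57.4 CPM in Ref, and 156 and 75.6 CPM in Alt. Both Alt libraries lay above every other library, and Ctr and Ref overlapped. Alt was 2.28-fold above Ctr (log2FC 1.19, SE 0.27; edgeR's quasi-likelihood test, Benjamini-Hochberg adjusted p = 0.12). Much of this difference came from Alt replicate 1, without which the log2FC was 0.58, and without Alt replicate 2 it was 1.62. The unadjusted p was under 0.05 in all 13 other settings.

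Bmpr2 was the other receptor with a difference of this order. It had 400, 540 and 448 CPM in Ctr, 352 and 516 CPM in Ref, and 974 and 664 CPM in Alt. Again both Alt libraries lay above all others while Ref overlapped Ctr. Alt was 1.77-fold above Ctr (log2FC 0.83, SE 0.21; edgeR's quasi-likelihood test, adjusted p = 0.12). With 17983 bases, Bmpr2 is longer than 98.9% of the genes tested, and its log2FC fell to 0.31 when each library's dependence on gene length was removed. Without Alt replicate 1 the log2FC was 0.53. The unadjusted p stayed under 0.05 in all 13 other settings, these included. Adjusted p-values over the 13 other settings ran from 0.000232 to 0.554 for Bmpr2 and from 1.31e-07 to 0.554 for Acvr1c.

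Tgfbr2 and Bmpr1a showed smaller differences that depended on the setting. Tgfbr2 had 29.6, 31.8 and 31.8 CPM in Ctr, 31.2 and 39.2 CPM in Ref, and 46.4 and 41.2 CPM in Alt. Both Alt libraries lay just above the higher Ref library, with a log2FC between Alt and Ctr of 0.50 (SE 0.17; edgeR's quasi-likelihood test, adjusted p = 0.163). Bmpr1a had 95.4, 120 and 95.7 CPM in Ctr, 96.1 and 127 CPM in Ref, and 153 and 121 CPM in Alt. Its Alt libraries lay above all Ctr libraries but overlapped Ref, with a log2FC of 0.40 (SE 0.18; edgeR's quasi-likelihood test, adjusted p = 0.244). Without Alt replicate 1 the log2FC was 0.41 for Tgfbr2 and 0.23 for Bmpr1a, and after the gene length correction it was 0.32 for both. Neither gene passed the unadjusted threshold in these fits. Leaving out Ctr replicate 1 (log2FC 0.35) or Ctr replicate 3 (log2FC 0.35) also ended the call for Bmpr1a.

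Acvr1 was the only 1 of the 10 with a negative log2FC between Alt and Ctr. It had 32.1, 31.7 and 31.7 CPM in Ctr, 28.3 and 31.2 CPM in Ref, and 23.4 and 25.4 CPM in Alt. The 3 Ctr libraries were nearly equal and both Alt libraries were the lowest of all. The log2FC was -0.38 (SE 0.18), which did not pass the unadjusted threshold (edgeR's quasi-likelihood test, adjusted p = 0.253), and over the 13 other settings it ran from -0.44 to -0.32.

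The remaining 4 receptors did not pass the test between Alt and Ctr. The TGF-β type I receptor Tgfbr1 had 61.4 to 88.3 CPM in Ctr, 65.4 and 85.9 CPM in Ref, and 100 and 85.9 CPM in Alt (log2FC 0.36, SE 0.19; edgeR adjusted p = 0.315). When 1 library was left out its log2FC ran from 0.25 to 0.53. It passed the unadjusted threshold without Ctr replicate 2 (log2FC 0.53), and its log2FC was 0.47 without Alt replicate 2. The activin type II receptor Acvr2a, the closest paralog of Acvr2b, had 60.8 to 87.5 CPM in Ctr and 96.3 and 75.8 CPM in Alt, which overlapped (log2FC 0.23, SE 0.18; edgeR adjusted p = 0.508), and without Alt replicate 1 its log2FC was 0.05. Bmpr1b had 38.2 to 50.6 CPM in Ctr and 47.0 and 49.2 CPM in Alt (log2FC 0.18, SE 0.17; edgeR adjusted p = 0.615), and its log2FC ran from 0.11 to 0.33 when 1 library was left out. Acvr1b, an activin type I receptor, had the estimate closest to 0, with 105 to 131 CPM in Ctr and 123 and 124 CPM in Alt (log2FC 0.02, SE 0.15; edgeR adjusted p = 0.956), and its log2FC was -0.07 without Ctr replicate 2. With 3 and 2 libraries, these results do not show that the levels were equal.

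**Figure D2:**
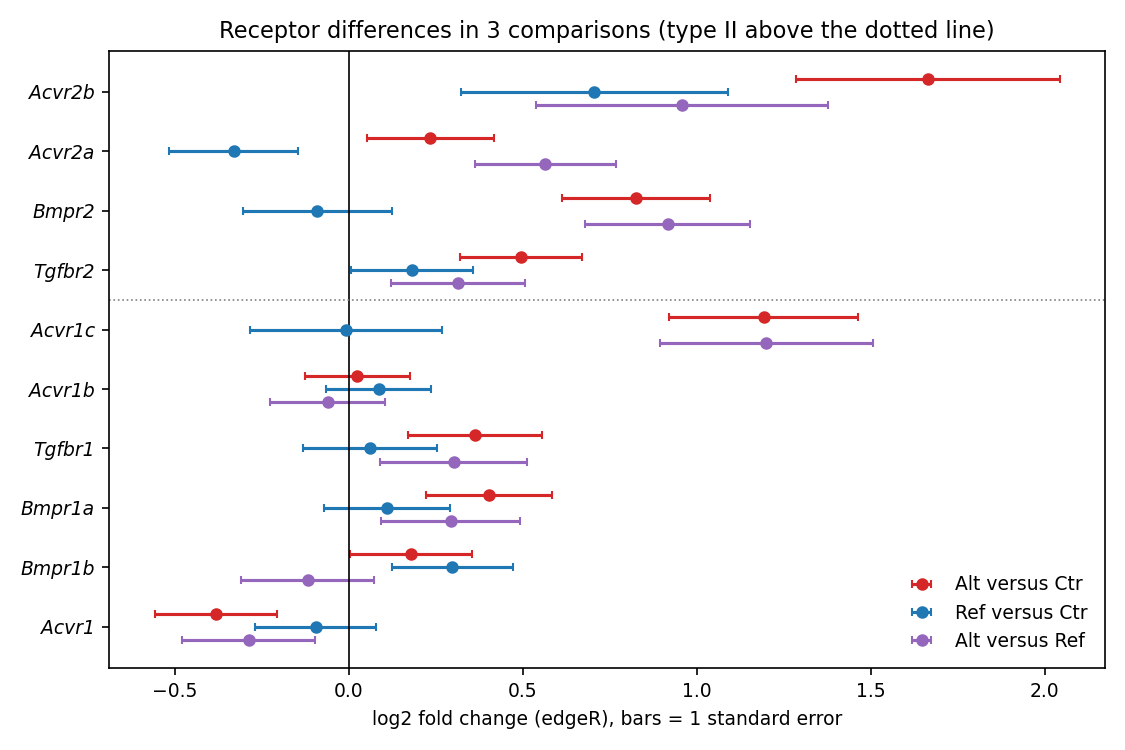
Log2 fold change (horizontal axis, edgeR estimate with a bar of 1 standard error) of each receptor between Alt and Ctr, Ref and Ctr, and Alt and Ref, with the 4 type II receptors above the dotted line. In the comparison of Alt with Ctr the estimates run from -0.38 for Acvr1 to 1.66 for Acvr2b, and in the comparison of Ref with Ctr they run from -0.33 for Acvr2a to 0.71 for Acvr2b.

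Between Ref and Ctr, 0 of the 9 receptors passed the unadjusted threshold by edgeR or by DESeq2, against 2.19% of all genes higher and 0.945% lower. The median log2FC of the 9 was 0.06. The largest positive value belonged to Bmpr1b, with 50.7 and 53.7 CPM in Ref against 38.6, 50.6 and 38.2 CPM in Ctr (log2FC 0.30, SE 0.17; edgeR adjusted p = 1). The most negative value belonged to Acvr2a, with 57.3 and 59.0 CPM in Ref against 60.8, 87.5 and 71.1 CPM in Ctr (log2FC -0.33, SE 0.19; edgeR adjusted p = 1). Acvr1c and Bmpr2, which of the 9 differed most between Alt and Ctr in the reported fit, without the gene length correction, had log2FC values of -0.01 and -0.09 here. Both took either sign when 1 library was left out. Acvr2a passed the unadjusted threshold after the gene length correction (log2FC -0.40) and without Ctr replicate 1 (log2FC -0.45), and Bmpr1b passed it without Ctr replicate 2 (log2FC 0.44).

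Alt and Ref were also compared directly, with the same Alt libraries as above. At the unadjusted threshold 3 of the 9 receptors, or 33.3%, were higher in Alt and 0 were lower, against 6.71% and 8.83% of all genes. Acvr1c had a log2FC of 1.20 (SE 0.31; edgeR's quasi-likelihood test, adjusted p = 0.229) and Bmpr2 one of 0.92 (SE 0.24; edgeR's quasi-likelihood test, adjusted p = 0.229). The log2FC of Bmpr2 fell to 0.49 with the gene length correction. The log2FC without Alt replicate 1, with a single Alt library left, was 0.60 for Acvr1c and 0.62 for Bmpr2. Acvr2a was the third, with a log2FC of 0.56 (SE 0.20; edgeR's quasi-likelihood test, adjusted p = 0.246). Its Alt libraries, at 96.3 and 75.8 CPM, lay above the Ref libraries at 57.3 and 59.0 CPM but overlapped Ctr. This call was lost without Alt replicate 1 (log2FC 0.39) and without Ref replicate 1 (log2FC 0.53). Acvr2a overlaps Orc4, a subunit of the origin recognition complex on the opposite strand with 842 to 1143 counts per library, and how the counting treated strand was not given. Orc4 itself had a log2FC of 0.44 (SE 0.18) between Alt and Ref, so reads shared between these genes cannot be told apart.

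Type II receptors were then summed per library to describe the receptor pool. Their summed level was 38.6, 50.7 and 43.9 FPKM in Ctr, 36.5 and 43.8 FPKM in Ref, and 73.6 and 54.7 FPKM in Alt, with both Alt libraries highest. Bmpr2 made up 58.9% to 60.2% of this sum in Ctr, 56.3% and 63.9% in Ref, and 68.0% and 64.8% in Alt. Acvr2b made up 1.13% to 2.35% in Ctr, 3.82% and 2.32% in Ref, and 3.64% and 3.01% in Alt, so Alt and Ref overlapped on this measure. These FPKM values carry no correction for each library's dependence on gene length, which lowered the log2FC of Bmpr2 between Alt and Ctr from 0.83 to 0.31 and raised that of Acvr2b from 1.66 to 1.81. Type I receptors of the activin and TGF-β branch summed to 44.0 to 47.9 FPKM in Ctr, 45.4 and 47.7 FPKM in Ref, and 55.3 and 47.4 FPKM in Alt. Those of the BMP branch summed to 29.1 to 34.4 FPKM in Ctr, 30.9 and 34.7 FPKM in Ref, and 33.9 and 31.3 FPKM in Alt. Both type I sums overlapped between the groups.

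**Figure D3:**
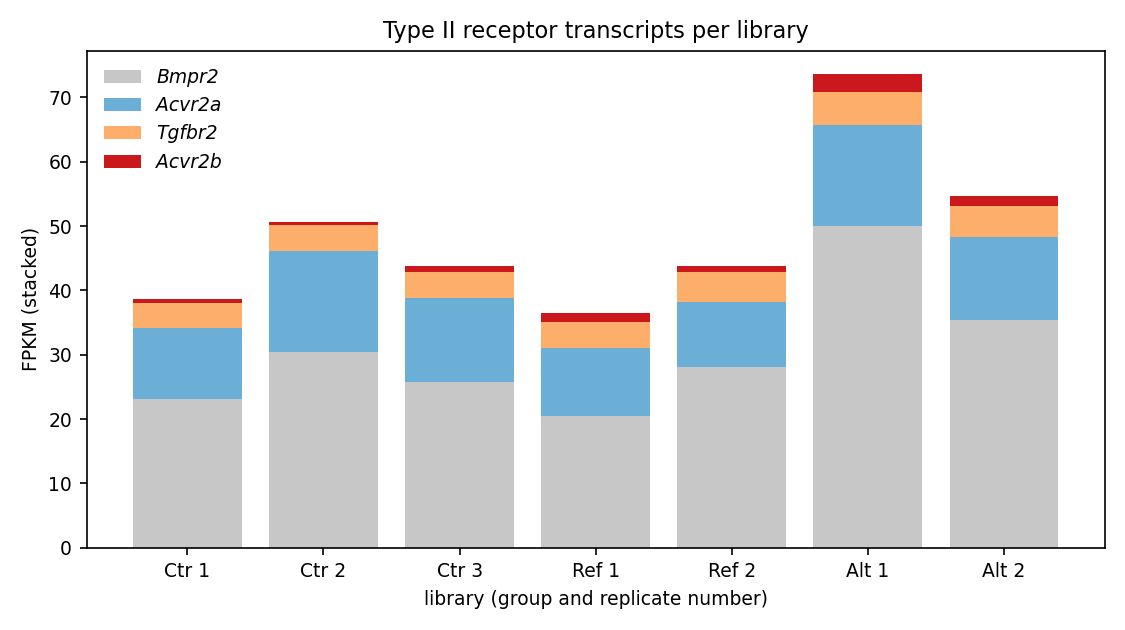
Stacked FPKM values (vertical axis from 0) of the 4 type II receptors in each library, named by group and replicate number. The total was 36.5 to 50.7 FPKM in the Ctr and Ref libraries and 73.6 and 54.7 FPKM in Alt, Bmpr2 was the largest share of every bar, and Acvr2b was at most 3.82% of a bar, in values with no gene length correction.

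Acvr2b and Acvr2a bind overlapping sets of ligands, and their ratio was taken within each library, where differences in depth cancel. Acvr2b amounted to 5.79%, 3.66% and 7.94% of the FPKM of Acvr2a in Ctr, to 13.2% and 10.02% in Ref, and to 17.1% and 12.9% in Alt. Ctr lay below both other groups, and Ref and Alt overlapped. Acvr2a itself was low in both Ref libraries. Acvr2b was thus the minor activin type II receptor in every library.

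The course of each receptor over the 7 libraries was set against that of Acvr2b as a description, since the libraries share depth and group. Pearson's r of log2 CPM with Acvr2b was 0.83 for Tgfbr2, 0.81 for Acvr1c and 0.67 for Bmpr2, between 0.24 and 0.59 for Bmpr1a, Tgfbr1, Acvr2a, Acvr1b and Bmpr1b, and -0.93 for Acvr1. Among 13204 protein-coding genes with a mean of at least 1 CPM, the 5 with the highest r were Srl, Ttc28, Prkca, Zmiz1 and Snph, from 0.991 to 0.987. None of the receptors was among them, which says little about the receptors with 13204 genes compared. Ttc28, for example, had 20.0, 17.6 and 25.7 CPM in Ctr, 28.6 and 26.01 CPM in Ref, and 54.0 and 40.4 CPM in Alt, which is the same order of groups as for Acvr2b. The study had picked out Ttc28 together with Acvr2b from its upregulated genes in the same tissue.

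Promoter sequences were examined because the higher receptors shared a direction. The study examined ZGPAT, a zinc finger repressor, as a protein partner of PAXIP1-AS1. ZGPAT is known to recognise GGAGAAAA, GGAGAAGA, GGAGGAAA and GGAGGAGA, and these 4 spellings were searched on both strands, from 250 bases before to 50 bases after each RefSeq start on GRCm38.p6. All 10 receptors matched a window, in 14 windows. A match occurred in 2 of the 10 genes, Bmpr2 and Tgfbr2, and in 13.5% of 27025 genes with a window (11.9% of 32851 windows). Acvr2b, Acvr1c and Bmpr1a had none in these windows. The sequences of Acvr2b and Tgfbr2 before the start are shown, since these genes share a direction but only the second holds a match, and for Bmpr2 the 28 bases around its match are shown. Capitals mark the match, which begins 34 bases before the start of Tgfbr2 and 12 bases after the start of Bmpr2, where it reads as the reverse complement of GGAGAAAA.
Acvr2b, chr9:119401928-119402177, forward strand: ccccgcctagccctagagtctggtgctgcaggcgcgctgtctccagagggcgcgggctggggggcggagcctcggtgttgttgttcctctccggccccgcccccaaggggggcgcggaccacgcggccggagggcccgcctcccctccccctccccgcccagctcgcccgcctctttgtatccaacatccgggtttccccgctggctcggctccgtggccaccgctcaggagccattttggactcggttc
Tgfbr2, chr9:116175364-116175613, reverse strand: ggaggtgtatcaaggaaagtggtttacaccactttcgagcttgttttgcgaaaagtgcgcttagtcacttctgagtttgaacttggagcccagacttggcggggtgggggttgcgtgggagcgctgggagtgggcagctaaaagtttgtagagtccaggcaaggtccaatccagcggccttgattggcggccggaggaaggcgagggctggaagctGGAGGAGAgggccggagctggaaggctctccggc
Bmpr2, chr1:59764281-59764308, forward strand: tctggatatgTTTTCTCCcagatctggg
A match of letters is a description of the window and not a binding site.

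**Figure D4:**
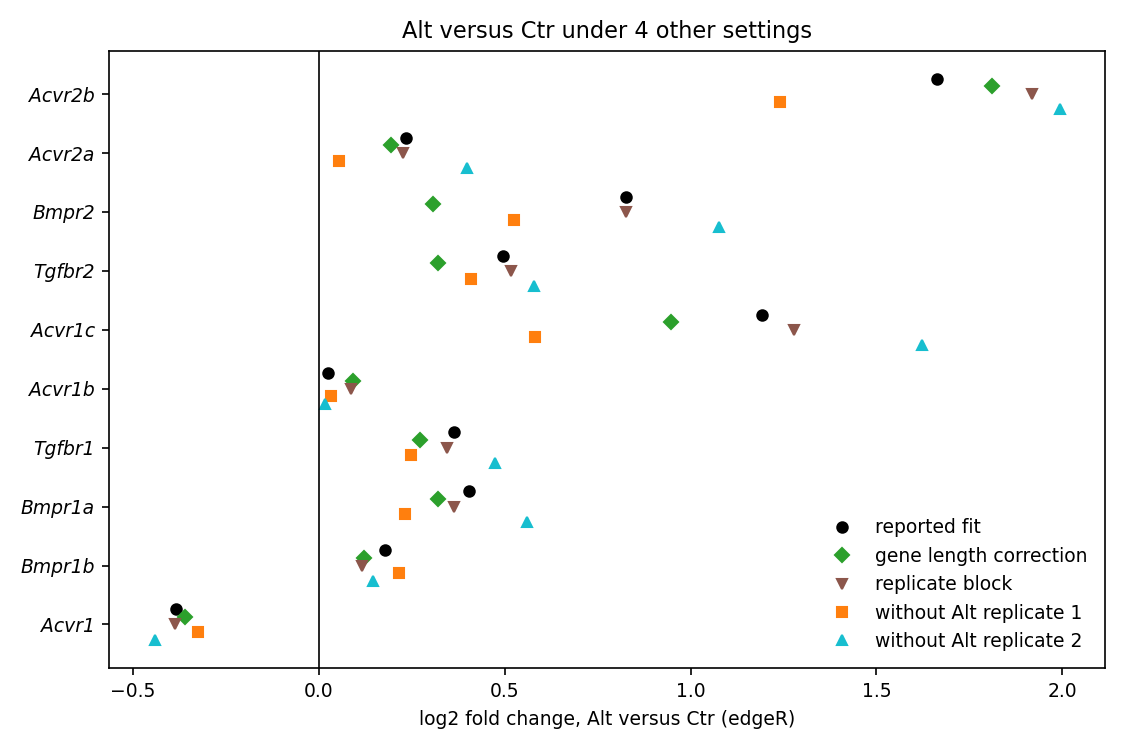
Log2 fold change between Alt and Ctr (horizontal axis, edgeR) of each receptor in the reported fit and in 4 other settings, marked by symbol and colour. Acvr1c ran from 0.58 without Alt replicate 1 to 1.62 without Alt replicate 2, Bmpr2 from 0.31 with the gene length correction to 1.08 without Alt replicate 2, and no receptor past the threshold changed sign.

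The length correction lowered the estimates of the long receptor genes and raised that of Acvr2b, which is of ordinary length. Acvr2b has 3928 bases, near the middle of all tested genes (48.5th percentile), and its log2FC was 1.81 after the correction. The other 9 receptors had a median length of 6351 bases against 4051 bases over all tested genes. Acvr1c, with 9292 bases, had a log2FC of 0.95 after it.

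Acvrl1 and Amhr2, which complete the type I and type II family, were listed with the co-receptors. Of the 11 tested genes of that list 1 was higher and 0 were lower (median log2FC 0.11), near the 9.45% of all genes higher. The co-receptor Rgmb, with the highest mean FPKM of the list, had 73.5 to 87.1 CPM in Ctr and 79.1 and 82.4 CPM in Alt. Acvrl1, a type I receptor known from endothelium, had 24.1, 22.8 and 18.02 CPM in Ctr, 22.3 and 26.8 CPM in Ref, and 34.2 and 26.8 CPM in Alt (log2FC between Alt and Ctr 0.49, SE 0.21; edgeR's quasi-likelihood test, adjusted p = 0.22). The summed level of 6 endothelial markers was 229 to 309 CPM in Ctr, 328 and 378 CPM in Ref, and 394 and 432 CPM in Alt, with all 6 log2FC values positive and 2 past the unadjusted threshold. Flt1, Vwf and Tek lay above all Ctr libraries in both Alt libraries. In Alt replicate 1, where Acvrl1 was highest, Cldn5 had its lowest level (19.4 CPM). Pecam1 (31.0 CPM) and Cdh5 (18.4 CPM) lay within the Ctr range there. Without Alt replicate 1 the log2FC of Acvrl1 was 0.31 and without Ctr replicate 3 it was 0.38, and it passed in neither fit. The call was also lost without either Ref library, where the log2FC stayed at 0.49 and 0.50. Amhr2, the receptor for anti-Müllerian hormone, was near 0, with 16, 0 and 8 counts in Ctr, 14 and 2 in Ref, and 22 and 0 in Alt.

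Other cell types were checked for the receptors as well, to be read against the 9.45% of all genes higher and 10.3% lower between Alt and Ctr. Meningeal fibroblast markers (4 genes, all with positive log2FC between Alt and Ctr, 2 past the unadjusted threshold) summed to 59.4 to 68.7 CPM in Ctr, 52.2 and 61.2 CPM in Ref, and 89.0 and 98.5 CPM in Alt. Astrocyte markers (6 genes, 1 higher in Alt) summed to 4827 to 6513 CPM in Ctr, 6582 and 8245 CPM in Ref, and 11072 and 7621 CPM in Alt. Most of this sum was the glutamate transporter gene Slc1a2, with 9528 CPM in Alt replicate 1, and the other 5 astrocyte markers summed to 1343 to 1686 CPM in Ctr, 1688 and 1775 CPM in Ref, and 1545 and 1656 CPM in Alt, which overlapped. Of 3 oligodendrocyte precursor markers 2 were higher in Alt, and of 6 cortical layer markers 2 were higher. Cortical layer markers summed to 401 to 438 CPM in Ctr, 399 and 388 CPM in Ref, and 563.8 and 471 CPM in Alt, with both Alt libraries above all others. Oligodendrocyte precursor markers summed to 130 to 171 CPM in Ctr, 197 and 202 CPM in Ref, and 234 and 196 CPM in Alt, so Alt lay above Ctr and overlapped Ref. Neuronal markers (6 genes, 1 higher) summed to 5250 to 5924 CPM in Ctr and 5860 and 5906 CPM in Alt, which overlapped. Microglial markers had 1 of 6 higher and 1 lower, mural cell markers and striatal markers had 0 past the threshold, and oligodendrocyte markers had 2 of 10 lower in Alt than in Ctr. Oligodendrocyte markers differed most for Ref, with 8 of 10 higher than in Ctr (2.19% of all genes) and 8 of 10 lower in Alt than in Ref (8.83% of all genes, median log2FC of the markers -0.85, 1 at an adjusted p of 0.05). They summed to 2425 to 3431 CPM in Ctr, 4101 and 5101 CPM in Ref, and 2904 and 2374 CPM in Alt. The part of these cell types in the receptor differences was not tested.

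The other genes of the pathway were read from 8 lists with 93 genes, of which 75 were tested. Between Alt and Ctr, 10 were higher and 8 were lower at the unadjusted threshold, 13.3% and 10.7% of the 75, which is near the 9.45% and 10.3% of all genes. Their median log2FC was 0.05, and no list's median changed when genes at 0 in Alt were set to a bound. Without Alt replicate 1 the counts were 6 and 2 (all genes: 3.68% and 4.46%), without Ctr replicate 1 they were 3 and 4 (5.69% and 6.06%), and without Alt replicate 2 they were 14 and 15 (14.3% and 18.9%). Of the 18 genes called with all libraries, 4 (Bmp7, Chrdl1, Dand5 and Gdf7) were still called without Alt replicate 1, and 3 (Bmp7, Dand5 and Gdf7) were called whichever library was left out. Between Ref and Ctr, 1 of the 75 was higher (Rgma, a BMP co-receptor, log2FC 0.44, SE 0.15; edgeR adjusted p = 1) and 0 were lower, against 2.19% and 0.945% of all genes, and the call was lost without Ref replicate 1 (log2FC 0.35). Between Alt and Ref, 5 were higher and 7 lower (all genes: 6.71% and 8.83%). Without Alt replicate 2 these counts were 9 and 15 (11.6% and 17.3%), and they were 4 and 2 both without Alt replicate 1 (2.35% and 4.4%) and without Ref replicate 1 (1.3% and 2.88%). In the reported fit no pathway gene passed an adjusted p of 0.05 by edgeR in these comparisons. Without Alt replicate 2, the log2FC between Alt and Ctr was 0.98 for Bmp3, -3.54 for Dand5 and 0.79 for Smad4, from 1 Alt library.

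Of 4 tested activin and Nodal ligand genes (median log2FC -0.14), Inhba was higher in Alt and Inhbb was lower (all genes: 9.45% higher, 10.3% lower). Inhba, which encodes the subunit of activin A, had 13.1, 22.1 and 13.01 CPM in Ctr, 12.2 and 12.5 CPM in Ref, and 34.7 and 17.96 CPM in Alt (log2FC 0.71, SE 0.31; edgeR adjusted p = 0.227). Alt replicate 2 lay below the highest Ctr library, so these groups overlapped, and without Alt replicate 1 the log2FC was 0.17. Inhbb, which encodes the subunit of activin B, had 9.83, 7.73 and 6.74 CPM in Ctr, 6.48 and 7.19 CPM in Ref, and 4.62 and 5.35 CPM in Alt, both below all others (log2FC -0.70, SE 0.30; edgeR adjusted p = 0.226). The call for Inhbb was kept only without Ctr replicate 3 or Alt replicate 2, and its log2FC was -0.53 without Ctr replicate 1 and -0.59 without Alt replicate 1. Inha, the inhibin subunit gene, which had the highest mean FPKM of the 4, had 8.55 to 9.48 CPM in Ctr and 5.72 and 7.53 CPM in Alt.

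Of 10 tested BMP and GDF genes (median log2FC 0.20), 2 were higher in Alt and 1 was lower (all genes: 9.45% higher, 10.3% lower). Bmp7 had 10.8, 12.4 and 14.5 CPM in Ctr, 14.0 and 13.2 CPM in Ref, and 19.8 and 24.0 CPM in Alt (log2FC 0.80, SE 0.22; edgeR adjusted p = 0.123). Bmp3, which antagonises other BMPs and has the highest mean FPKM of this list, had 66.5, 62.6 and 81.3 CPM in Ctr, 65.5 and 57.9 CPM in Ref, and 138 and 89.1 CPM in Alt (log2FC 0.70, SE 0.20; edgeR adjusted p = 0.125). Both genes had their Alt libraries above all others. With Alt replicate 1 left out, the log2FC was 0.94 for Bmp7 and 0.35 for Bmp3, and only Bmp7 still passed. Gdf7 was lower, with 10, 23 and 12 counts in Ctr, 10 and 2 in Ref, and 0 in both Alt libraries, which is at least 8.09-fold lower than Ctr at a floor of 3 counts over the Alt group. Among 6 TGF-β and latent binding protein genes (median log2FC 0.16), 1 of which was higher and 0 lower (all genes: 9.45% higher, 10.3% lower), Ltbp3 was the higher one (log2FC 0.51, SE 0.22; edgeR adjusted p = 0.225), with both Alt values (29.5 and 21.6 CPM) above Ctr (15.6 to 19.8 CPM) and Ref between 20.99 and 25.97 CPM, and without Alt replicate 1 its log2FC was 0.27 and it did not pass. Ltbp4, with the highest mean FPKM, had 98.0 to 139 CPM in Ctr and 120 and 143 CPM in Alt.

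Extracellular antagonists had 1 of 10 tested genes higher and 2 lower (median log2FC -0.19), against 9.45% of all genes higher and 10.3% lower. Dand5, a secreted antagonist of Nodal and BMPs, had the smallest p of all the pathway genes. It had 5.51, 5.02 and 5.53 CPM in Ctr, 4.11 and 3.57 CPM in Ref, and 0.455 and 1.28 CPM in Alt, both far below all others (log2FC -2.60, SE 0.51; edgeR adjusted p = 0.12). Dand5 overlaps Gadd45gip1 on the opposite strand, which had a log2FC of -1.01 (SE 0.45), and reads of these genes cannot be told apart without strand. Nog, which encodes the BMP antagonist noggin, had 6.60, 13.7 and 6.46 CPM in Ctr, 8.08 and 7.55 CPM in Ref, and 4.16 and 5.30 CPM in Alt (log2FC -0.91, SE 0.37; edgeR adjusted p = 0.207). Its level in Ctr replicate 2 was the highest of all, and without that library the log2FC was -0.46 and the call was lost, as it was without Alt replicate 1 (log2FC -0.74). Chrdl1, a chordin-like BMP antagonist, was higher (log2FC 0.44, SE 0.20; edgeR adjusted p = 0.251), and its call was lost without Ctr replicate 1 (0.34), Ctr replicate 3 (0.41) or Alt replicate 2 (0.34). Nbl1, the antagonist with the highest mean FPKM, had 24.5 to 33.2 CPM in Ctr and 23.7 and 29.3 CPM in Alt.

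Inside the cell, 2 of 8 SMAD genes were higher in Alt and 0 were lower (median log2FC 0.17) (all genes: 9.45% higher, 10.3% lower). Smad4, the shared SMAD of both branches, had 58.1, 66.1 and 68.4 CPM in Ctr, 67.8 and 65.9 CPM in Ref, and 111 and 70.8 CPM in Alt (log2FC 0.50, SE 0.19; edgeR adjusted p = 0.178). Smad5, of the BMP branch, had a log2FC of 0.44 (SE 0.18; edgeR adjusted p = 0.208), with 79.0 and 61.3 CPM in Alt against 47.4 to 59.3 CPM in Ctr and 55.1 and 68.0 CPM in Ref. With Alt replicate 1 left out, the log2FC was 0.14 for Smad4 and 0.25 for Smad5, and neither passed. Of 15 intracellular regulators (median log2FC 0.21) 2 were higher and 2 lower (all genes: 9.45% higher, 10.3% lower). The higher ones were Skil (log2FC 0.44; edgeR adjusted p = 0.218), a nuclear repressor of SMAD activity, and Map3k7 (log2FC 0.40; edgeR adjusted p = 0.229), a kinase of the SMAD-independent branch. Their log2FC values fell to 0.17 and 0.18 without Alt replicate 1, and neither passed. Fkbp1a, which binds and restrains type I receptors, was lower (log2FC -0.51, SE 0.22; edgeR adjusted p = 0.229), with 178 and 316 CPM in Alt against 310 to 387 CPM in Ctr. It had the highest mean FPKM of its list, its Alt libraries overlapped Ctr, and without Alt replicate 1 its log2FC was -0.16. The corepressor Tgif2 had 4 to 20 counts in Ctr and 0 in both Alt libraries, at least 6.61-fold lower at the same floor. It was kept for testing through its Ctr counts, and without Ctr replicate 2 or without Ctr replicate 3 it was not tested.

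Of 11 listed target genes 0 were higher and 2 were lower in Alt (all genes: 9.45% higher, 10.3% lower), with a median log2FC of -0.40. Id2, an inhibitor of helix-loop-helix factors induced by BMPs, which had the highest mean FPKM of the targets, had 111, 84.1 and 84.4 CPM in Ctr, 88.4 and 99.3 CPM in Ref, and 45.0 and 82.8 CPM in Alt (log2FC -0.54, SE 0.24; edgeR adjusted p = 0.231). Cdkn1a, a cell cycle inhibitor induced by TGF-β, had 19.8, 18.3 and 12.6 CPM in Ctr, 19.9 and 15.05 CPM in Ref, and 7.61 and 12.99 CPM in Alt (log2FC -0.71, SE 0.30; edgeR adjusted p = 0.213). For both genes Alt replicate 1 was far below the rest and Alt replicate 2 was close to or within the Ctr range. Once Alt replicate 1 was left out, the log2FC was -0.17 for Id2 and -0.38 for Cdkn1a, and neither passed. Most listed targets respond to other signals as well, and the lists were not compared with each other.

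**Figure D5:**
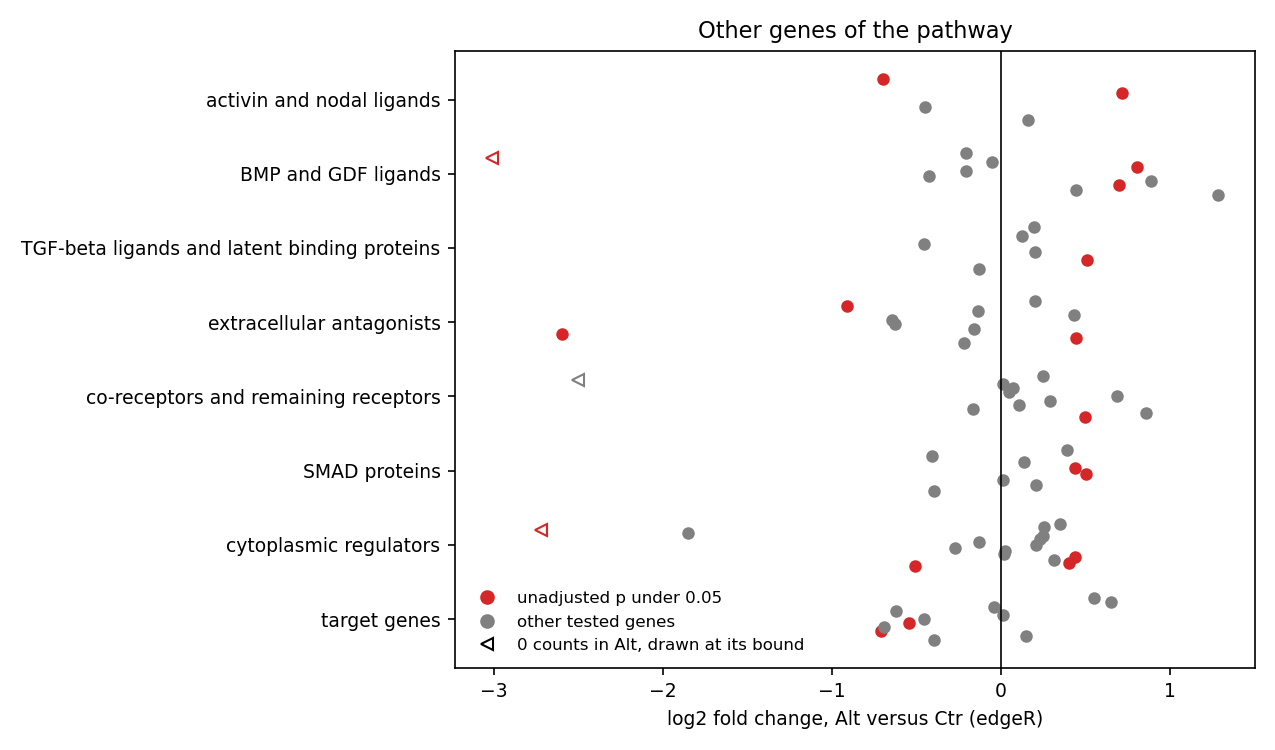
Log2 fold change between Alt and Ctr (horizontal axis, edgeR) of the 75 tested genes in 8 pathway lists, in red where the unadjusted p was under 0.05; the 3 genes with 0 counts in both Alt libraries are drawn at the bound set by 3 counts. The red points lie on both sides of 0, with 10 higher and 8 lower, and Dand5 at -2.60 is the lowest point with counts in Alt.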

How the data were processed

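RNA from the PFC of female mice was sequenced after poly(A) enrichment with a TruSeq kit. The authors deposited raw counts per gene and library, with TPM and FPKM computed from them and a gene length, in 1 table. FPKM equals the count divided by length and library total. The submitters' processing notes name STAR, featureCounts and hg19, although the table lists mouse Ensembl genes; the mouse build, annotation and strand setting are not given in the sources used here. Samples were grouped by their labels, and all 7 libraries were used.

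The tests used edgeR 4.0.16 under R 4.3.3 (TMM, filterByExpr, glmQLFit, glmQLFTest with group means, Benjamini-Hochberg adjustment over 17254 genes), and an alternative used DESeq2 1.42.0. Log2 CPM used a prior count of 2. TPM was not used for any result. Gene length correction removed a loess curve of span 0.3 per library. Named genes are the 10 receptors, Acvrl1, Amhr2, pathway genes past an unadjusted p of 0.05 between Alt and Ctr (at most 6 per list), the gene of highest mean FPKM in each list, and the 5 genes most correlated with Acvr2b. Orc4, Gadd45gip1, Rgma, Slc1a2 and the single endothelial markers were added after their values were seen. Members and lists were chosen with earlier results of these data known. The scripts were tested on simulated data. Promoter sequences come from RefSeq (GRCm38.p6), matched by symbol, and their coordinates are not on the build of the table.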

Additional observations from a re-analysis of the deposited data

How the results depend on the processing

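Over 13 alternatives (DESeq2, RLE size factors, no filter on low counts, gene length correction, a replicate block, only the compared groups, and leaving out each library in turn), no receptor past the unadjusted threshold changed sign. Of 351 tested receptor values under an alternative, 323 kept their sign and their side of the threshold, 10 lost the threshold, 6 gained it and 12 changed sign, 0 of them past the threshold in either fit. The log2FC of Acvr2b, which was not tested, moved by more than the spread between replicates once. The count of other receptors past the unadjusted threshold between Alt and Ctr was 4 and became 2 with the gene length correction and 2 with the replicate block, and ran from 2 to 5 when 1 library was left out, while the share of all genes that were higher went from 9.45% to 7.3%, to 6.54% and to between 3.68% and 14.3%. Between Ref and Ctr it was 0, became 1 (lower) with the gene length correction (all genes: 1.9% higher and 3.27% lower) and ran from 0 to 1 (0.699% to 3.42% higher and 0.265% to 2.14% lower). Between Alt and Ref it was 3, all higher, and ran from 2 to 4, as the share of all genes that were higher ran from 1.3% to 11.6%. For pathway genes between Alt and Ctr the count of 18 became 7 with the replicate block (4 higher and 3 lower of 75, against 6.54% and 6.1% of all genes) and ran from 7 to 29. Between Ref and Ctr the count of 1 became 3 with the gene length correction (1 higher and 2 lower, beside the shares above), 0 with the replicate block (1.79% and 0.707% of all genes) and 2 with only the compared groups (1 higher and 1 lower, against 3.22% and 2.5%), and ran from 0 to 2. Between Alt and Ref the count of 12 became 7 with only the compared groups (4 higher and 3 lower of 71, against 5.43% and 6.33% of all genes) and ran from 6 to 24 (1.3% to 11.6% higher and 2.88% to 17.3% lower). The cause of these changes was not tested. At an adjusted p of 0.05, genes called between Alt and Ctr numbered 0 in the reported fit, 1097 with DESeq2 and 1484 without the filter on low counts.

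Replicate numbers are shared between groups, and deviations from group means of same-numbered libraries had correlations from -0.0984 to 0.0702. In a group of 2 libraries the deviations mirror each other, so these values cannot show whether the numbers pair samples. With the replicate block, Bmpr1a (log2FC 0.36) and Tgfbr2 (log2FC 0.52) lost the unadjusted threshold, and Acvr1c and Bmpr2 did not. The order of receptor levels was the same for 10 of 10 receptors in the alternative tried, and the log2 ratio of Acvr2b to Acvr2a differed between Alt and Ctr by 1.43, or 1.41 with 1 count added. Depth limits Acvr2b, with 45 to 175 counts per library, more than any other of the 10 receptors. Leaving out each library for the named pathway genes, and summing astrocyte markers without Slc1a2, were chosen after seeing the data.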

Other observations

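Smad7, which encodes an inhibitory SMAD that blocks type I receptors, was lower in Alt than in Ref at the unadjusted threshold (8.83% of all genes were lower), and was chosen after its values were seen. It had 17.3 to 17.5 CPM in the Alt libraries, 27.5 to 28.9 CPM in Ref and 21.9 to 24.9 CPM in Ctr, with Ctr in the middle. Both Alt libraries lay below all Ctr and Ref libraries, as they did for 13.1% of all genes. The log2FC was -0.70 between Alt and Ref (SE 0.21; edgeR's quasi-likelihood test, adjusted p = 0.236), -0.41 between Alt and Ctr (SE 0.19; edgeR adjusted p = 0.258) and 0.29 between Ref and Ctr (SE 0.18; edgeR adjusted p = 1). Id1, a BMP target gene chosen in the same way, had 4.16 to 7.81 CPM in Alt, 10.9 to 13.6 CPM in Ref and 8.22 to 12.6 CPM in Ctr, with a log2FC between Alt and Ref of -1.03 (SE 0.36; edgeR's quasi-likelihood test, adjusted p = 0.244). The Smad7 and Id1 values share the Alt libraries with all results above. Without Alt replicate 1 the log2FC between Alt and Ref was -0.68 for Smad7, which still passed the unadjusted threshold, and -0.64 for Id1, which did not. The call of Id1 was also lost without Ref replicate 1 (log2FC -0.87). Oligodendrocyte markers were lower in Alt than in Ref as well, with 8 of 10 past the threshold, and their part in these differences was not tested.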
